A study of Mus musculus with 18 samples.

Results

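Organic ion and drug transporters carry charged metabolites, hormones, toxins and medicines across cell membranes. They were examined here as the genes whose symbols begin with Slc22a, Slco, Slc47a, Abcc or Abcb followed by a number. Of the 24602 genes counted, 63 met this rule, and 49 had enough counts to be tested. The data are RNA-seq read counts per gene from 18 mouse libraries, 3 in each of 6 groups, which combine 2 RNA fractions, nuclear and total, with 3 genotypes. The genotypes of Nup93, a structural protein of the nuclear pore, were wild type (WT), R388W/+ (Het) and R388W/R388W (Hom), in knock-in mice of the strain given as 129S1/SvlmJ. Groups are named by fraction and genotype, for example Nuclear_Het. The labels give no age, treatment or number of animals, name the material as mouse tissue, and the series text names podocytes isolated from these mice, the filtering cells of the glomerulus.

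As background, the kidney's proximal tubule secretes organic anions and cations. Basolateral carriers of the Slc22 family take them up from blood, organic anions in exchange for dicarboxylates whose gradient the sodium pump maintains. Apical carriers and ATP-driven pumps of the Slc47, Abcc and Abcb families release them into urine, and Slc22a12 returns urate from the lumen. The Slco family encodes organic anion transporting polypeptides, which take up bile salts, steroid conjugates, thyroid hormones and prostaglandins. Several of these carriers are known for levels that differ between male and female rodents.

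The widest differences between groups fell on Slco1a1 and on a set of Slc22a genes that lie next to each other on chromosome 19. The promoter sequences of 4 of them are shown, as 300 bases from 250 before to 50 after the start site, 5′ to 3′ on the minus strand, from RefSeq (GRCm38.p6). They lie at chr19:8131933-8132232 for Slc22a28, chr19:8405056-8405355 for Slc22a30, chr19:8218851-8219150 for Slc22a29 and chr6:141946913-141947212 for Slco1a1. The start used for Slc22a29 lies inside its annotated gene. Slc22a26 is not shown, although its highest and lowest group means differed more than those of Slc22a29 (27.4 against 15.7 times). In Slc22a30 and Slc22a29, capitals mark bases not matched to the Slc22a28 promoter in a pairwise alignment, 12 in Slc22a30 and 75 in Slc22a29. In Slco1a1 they mark the nuclear receptor half-site AGGTCA or its reverse complement.
Slc22a28: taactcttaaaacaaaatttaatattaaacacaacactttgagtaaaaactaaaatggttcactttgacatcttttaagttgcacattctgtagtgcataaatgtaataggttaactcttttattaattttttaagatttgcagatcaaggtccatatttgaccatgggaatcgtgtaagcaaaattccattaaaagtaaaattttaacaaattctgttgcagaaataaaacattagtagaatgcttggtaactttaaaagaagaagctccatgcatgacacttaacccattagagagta
Slc22a30: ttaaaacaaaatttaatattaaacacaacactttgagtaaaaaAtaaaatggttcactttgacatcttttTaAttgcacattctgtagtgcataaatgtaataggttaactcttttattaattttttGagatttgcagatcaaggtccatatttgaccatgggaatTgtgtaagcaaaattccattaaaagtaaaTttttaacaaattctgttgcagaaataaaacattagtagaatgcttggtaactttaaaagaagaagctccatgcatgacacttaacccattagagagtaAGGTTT
Slc22a29: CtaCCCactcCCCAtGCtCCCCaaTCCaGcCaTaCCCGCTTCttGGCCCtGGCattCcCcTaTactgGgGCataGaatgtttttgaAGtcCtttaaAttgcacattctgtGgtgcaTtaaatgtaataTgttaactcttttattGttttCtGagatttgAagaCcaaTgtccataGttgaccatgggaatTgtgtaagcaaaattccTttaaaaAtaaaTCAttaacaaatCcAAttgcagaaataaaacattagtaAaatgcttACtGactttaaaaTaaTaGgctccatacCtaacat
Slco1a1: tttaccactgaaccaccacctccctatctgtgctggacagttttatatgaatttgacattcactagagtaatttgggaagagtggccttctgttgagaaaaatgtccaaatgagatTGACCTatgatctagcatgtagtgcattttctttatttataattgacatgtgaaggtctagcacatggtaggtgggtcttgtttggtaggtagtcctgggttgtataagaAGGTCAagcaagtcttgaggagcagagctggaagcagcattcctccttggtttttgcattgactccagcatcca

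The promoters of Slc22a28 and Slc22a30 had 288 of 300 bases in common (96.0%), and those of Slc22a28 and Slc22a29 had 225 (75.0%), nearly as many as Slc22a29 and Slc22a30 (224). The same alignment matched 181 bases (60.3%) between Slco1a1 and its relative Slco1a6, and between 169 and 207 for the other pairs among the neighbouring genes Slc22a19, Slc22a26, Slc22a27, Slc22a28, Slc22a29 and Slc22a30. The half-site AGGTCA, searched on both strands, began 134 and 24 bases before the Slco1a1 start. It was found in 10 of 57 promoter entries of members and in 16.3% of all 32851 entries. The palindrome TTCNNNGAA, which STAT5 factors can bind, was found in 10 of the 57 and in 8.30% of all. The HNF4 core CAAAGTCCA was found in 0 of the 57 and the E-box CACGTG in 4, beside 0.475% and 7.15% of all entries. A match describes letters only. Promoter entries were found for 50 of the 63 members.

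The transcripts of the neighbouring genes are also alike, which bears on their counts. Of the 50-base stretches of Slc22a28 transcripts, 53.9% also occurred in another gene, mostly in Slc22a30. This share was 34.2% for Slc22a30, 29.9% for Slc22a27 and 28.7% for Slc22a29, both mostly with each other, 26.3% for Slc22a5 (with Slc22a21), 36% for Slc22a13 (with its pseudogene Slc22a13b-ps), 17.6% for Abcb1a, 11.6% for Abcb1b and 50.01% for Abcb6 (with the gene model Gm29253). How reads that fit more than 1 gene were counted is not given in the sources used here, so the split of counts within each of these pairs is uncertain. Slc22a26 shared 6.21% and Slco1a1 1.64%.

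Libraries held 17405493 to 23462056 counts as used here. Levels are given as CPM, counts per 1000000 after trimmed-mean (TMM) scaling of library sizes. Proximal tubule markers took 2.15 to 5.43% of the counts and podocyte markers 0.0525 to 0.0869%, and none of the 12 podocyte markers was at 0. By group, the tubule share was 4.52%, 2.17% and 2.76% in nuclear RNA of WT, Het and Hom, and 2.80%, 5.40% and 2.28% in total RNA. Kap, a marker in that list, weighs heavily in this sum. It averaged 14534 CPM in Nuclear_WT and 22982 in Total_Het, against 1610 to 5402 in the other groups. Acsm2 (4514 and 7072 CPM), Cyp2e1 (1127 and 1560) and Slc7a13 (755 and 1057) were also highest in Nuclear_WT and Total_Het. Not all markers of the list followed this order: Lrp2 was highest in Total_WT (3864 CPM) and Miox in Nuclear_Hom (1576 CPM). Nphs1, a defining podocyte marker, had group means of 6.28 to 18.2 CPM, and the tubule phosphate carrier Slc34a1 of 2443 to 4761 CPM. The material thus held far more tubule than podocyte transcript. Fewer cells of a type and less RNA per cell cannot be told apart in such bulk libraries. Xist, the noncoding RNA of the inactive X chromosome, averaged 516 CPM in Nuclear_Het, 504 in Nuclear_Hom and 346 in Total_WT, against 0.538 in Nuclear_WT, 0.624 in Total_Het and 1.25 in Total_Hom. The Y-linked Uty, Kdm5d, Eif2s3y and Ddx3y together averaged 156 to 162 CPM in those last 3 groups and 0.609 to 2.59 in the first 3. Comparisons with WT, and of nuclear with total RNA, therefore set high-Xist against low-Xist libraries, and genotype or fraction cannot be told apart from that difference there. Only Hom against Het within a fraction did not, but in nuclear RNA the low Y-linked sum still differed between these genotypes. It was 2.32 to 2.95 CPM in the Nuclear_Het libraries and 0.510 to 0.744 in Nuclear_Hom. The part of this difference in members that are high in the low-Xist groups was not tested. Total_Hom replicate 2 stood apart: the median chi-square of its counts against the 2 other libraries of its group was 4.28 and 4.32 times that of sampling noise, against 1.27 to 1.84 times for every other pair of replicates, and the ribosomal precursor Rn45s took 7.12% of its counts against 0.23 to 0.25% in the others of its group. Without it, 41 members were still called in total RNA of Hom against Het, 40 of them the same; Abcb9 was lost and Slc22a3 gained. Nup93 averaged 15.9 to 22.6 CPM. The allele is a substitution, which leaves counts of the gene no check of the labels. The labels do not say whether replicates are separate animals or preparations, and each p-value covers only the scatter among the replicates sequenced, possibly technical.

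Among the members, 42 averaged at least 5 CPM over the 18 libraries and 16 at least 100 CPM. Slc22a12, the apical urate exchanger known as URAT1, was the most abundant at 904 CPM, and also per kilobase of the deposited gene length, at 401 CPM per kb. Slc22a18 (251 CPM per kb) and Slc47a1 (177 CPM per kb) were also high per length. All members together summed to 7363 ± 6.46, 4995 ± 39.8 and 5937 ± 13.2 CPM (SD, n = 3) in nuclear RNA of WT, Het and Hom, and to 5489 ± 31.6, 8577 ± 17.3 and 4366 ± 5.53 CPM in total RNA. The highest sums thus stood in the 2 groups with the highest tubule marker share. Kap weighs heavily in that share, and some markers of the list, such as Lrp2 and Miox, were highest in other groups. The ratio of the highest to the lowest group mean was under 2 in 19 of the 42, from 2 to under 5 in 14 and at least 5 in 9, and Abcc10 had the smallest, 1.09. In 9 of the 42 (21.4%) the 3 highest groups were Nuclear_WT, Total_Het and Total_Hom, the groups of low Xist, and in 7 (16.7%) they were Nuclear_Het, Nuclear_Hom and Total_WT. Of all 11526 genes of at least 5 CPM, 11.2% showed the first order and 8.997% the second. The first 9 were Slco1a1, Abcc2, Slco3a1, Slc22a22, Slc22a28, Slc22a30, Abcb10, Slc22a26 and Abcc9. The other 7 were Abcb1b, Abcc4, Slc22a13, Abcc3, Slc22a29, Abcb1a and Slco4c1.

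**Figure D1:**
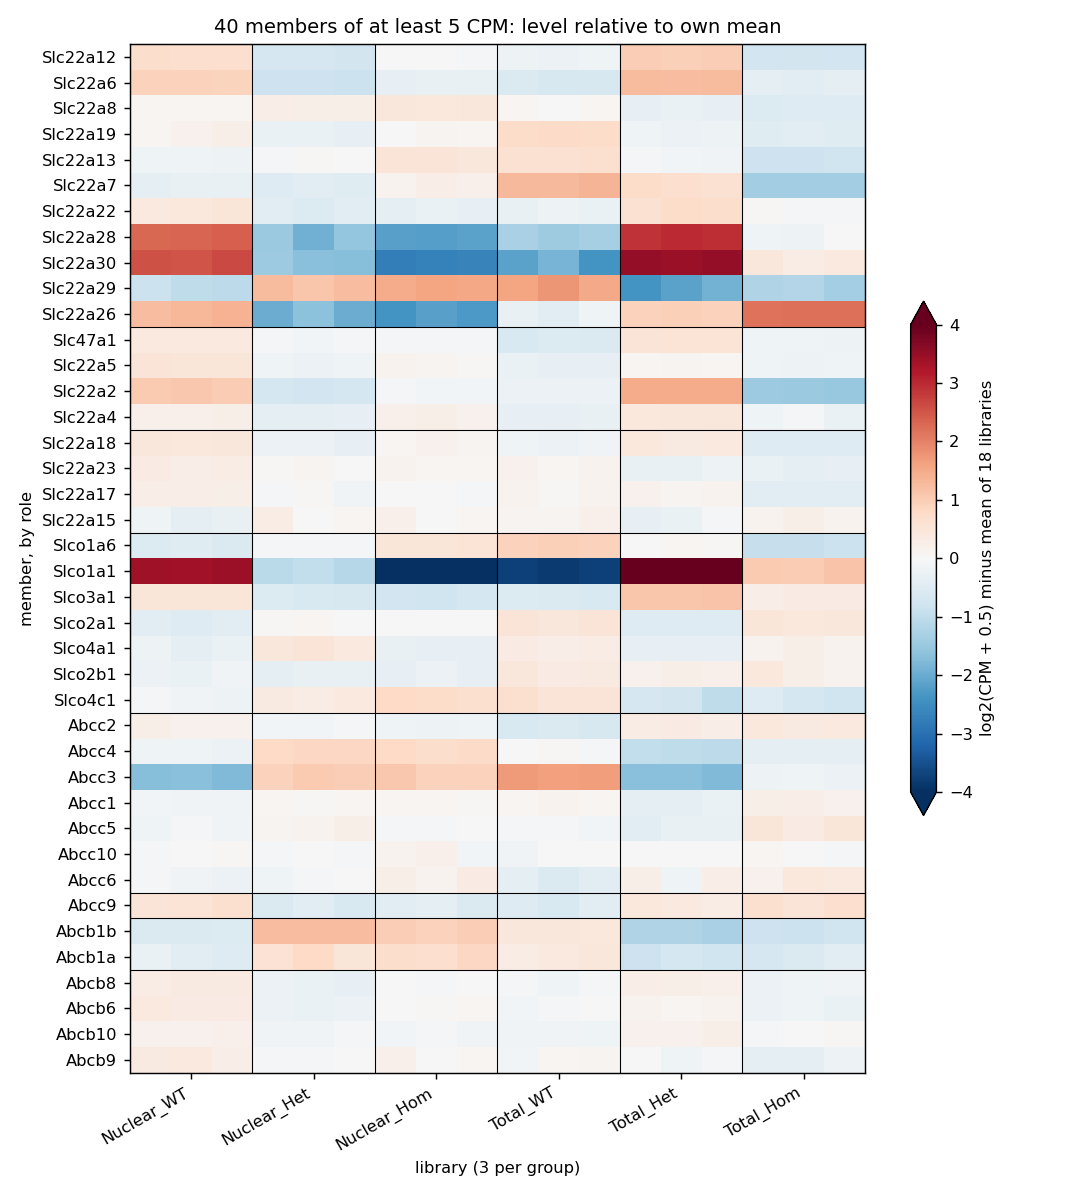
Level of 40 of the 42 members of at least 5 CPM (rows, grouped by role) in the 18 libraries (columns, 3 per group), as log2(CPM + 0.5) minus the member's mean over all libraries; the colour scale ends at 4 units either way, and 6 Slco1a1 cells reach beyond it, to 5.01 and -4.82. Slco1a1, Slc22a28 and Slc22a30 lie far above their means in Nuclear_WT and Total_Het, and the 3 libraries of a group differ far less in colour than the groups do.

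The comparison of homozygous with heterozygous libraries asks what the second mutant allele adds. Most members called in both fractions went opposite ways in them, 22 of 28 (78.6%), as did 71% of the 4803 genes of any kind called in both, a share close to that of the members. The nuclear Het and Hom libraries are high in Xist and the total ones low, so that fraction and Xist status cannot be told apart in this contrast. A member is called where edgeR's Benjamini-Hochberg adjusted p is under 0.05. In nuclear RNA 30 of 49 tested members were called, 20 higher and 10 lower in Hom, beside 43.2% of all genes tested (21.4% higher and 21.8% lower). In total RNA 41 were called, 16 higher and 25 lower, beside 67% of all genes (32.9% higher and 34.1% lower). The same shares of all genes stand beside the counts of roles, marker lists and related genes given below for Hom against Het. At least 2-fold changes were called for 2 members in nuclear RNA (5.67% of all genes) and 13 in total RNA (9.04% of all genes). The median log2 difference over the tested members was 0.14 in nuclear and -0.18 in total RNA, beside -0.0010 and 0.0062 over all genes tested. With library totals alone as the scale these medians were 0.081 and -0.029 for the members and -0.056 and 0.16 for all genes. With Total_WT replicate 1 as deposited in the fit, the total RNA calls of Abcc2, Abcc9, Slc22a5, Slc22a19 and Slc22a27 were lost at nearly the same values (0.10, 0.26, -0.26, -0.26 and 2.23). On the scale of library totals the total values of Slc22a5 and Slc22a19 shrank to -0.12 and -0.12, still called.

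Of the 28 members called in both fractions, 16 were higher in nuclear and lower in total RNA of Hom, 6 were lower in nuclear and higher in total RNA, 4 were lower in both and 2 higher in both. The first pattern was 57.1% of these members and 38.5% of all genes called in both. The 4 that fell in both were Slco1a1, Slc22a28, Slc22a30 and Slco3a1, and the 2 that rose in both were Slc22a27 and Slc22a29. The Y-linked sum was also lower in nuclear Hom than in nuclear Het (0.609 against 2.59 CPM), and its part in the nuclear falls was not tested. Tubule markers went the same ways as the set of 16. In nuclear RNA 18 of 20 were called higher and 1 lower in Hom, with shares of 2.17% in every Het library and 2.76 to 2.77% in Hom. In total RNA 3 were higher and 17 lower, with shares of 5.35 to 5.43% in Het and 2.15 to 2.37% in Hom. The marker Kap, at 22982 CPM in Total_Het and 1828 in Total_Hom, weighs heavily in these summed shares. Some other lists were higher in total Hom with 0 lower: 9 of 10 endothelial markers (median log2 0.62), 7 of 8 of the collecting duct (0.79), 9 of 12 of podocytes (0.56) and 2 of 2 tested erythroid ones (0.33). Others were mixed in total RNA. Thick ascending limb and distal markers were 3 higher and 5 lower (-0.050), and mesangial and stromal ones 2 and 4 (-0.13). Immune markers were 2 higher and 2 lower (-0.011), and hepatocyte ones 2 and 2 (-0.22). Immune markers were lower in nuclear Hom in 9 of 10, falling from 0.166% to 0.0536% of the counts. Their part in the transporter differences was not tested.

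**Figure D2:**
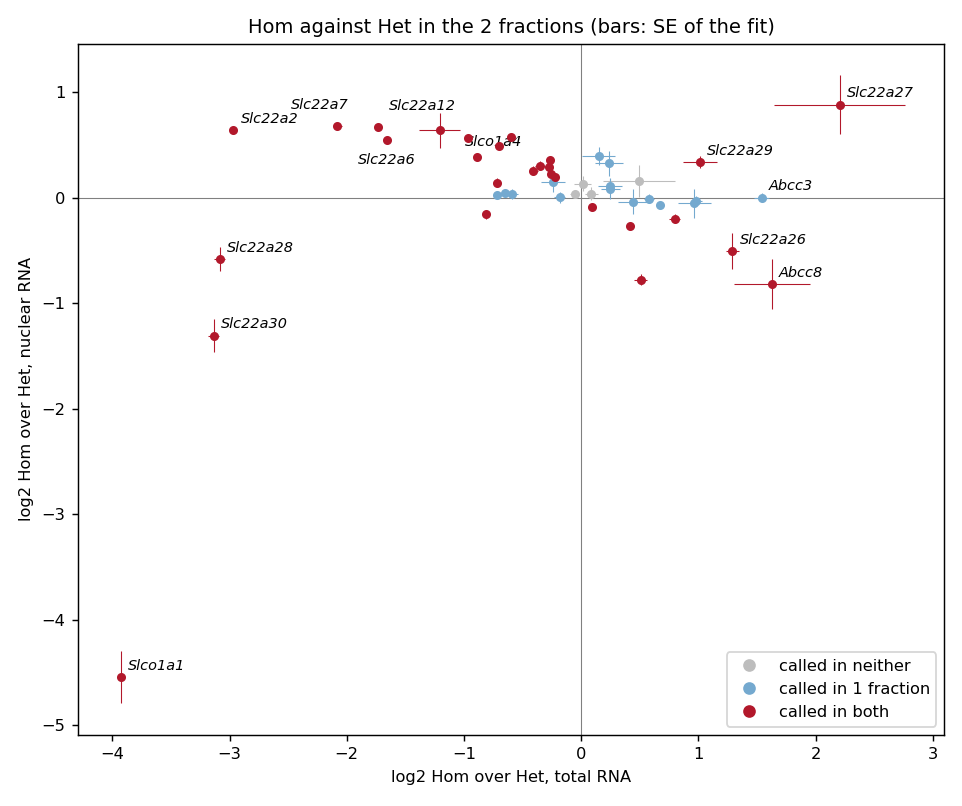
Log2 difference between Hom and Het in total RNA (horizontal axis) and nuclear RNA (vertical axis) for the 47 tested members averaging at least 1 CPM, with the SE of the fit as bars and colour for the number of fractions in which a member was called. Slco1a1, Slc22a28 and Slc22a30 lie at the lower left, while Slc22a2, Slc22a6, Slc22a7 and Slc22a12 lie at the upper left, lower in total and higher in nuclear RNA of Hom.

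Among the 13 organic anion and urate transporters, all 12 that were tested were called in both fractions, 9 higher and 3 lower in nuclear RNA and 3 higher and 9 lower in total RNA of Hom. Of 14858 genes of any kind tested in both fractions, 4803 were called in both. Over all genes 43.2% were called in nuclear and 67% in total RNA. Slc22a6, the basolateral uptake carrier OAT1, stood at 866, 873 and 859 CPM in the Nuclear_WT libraries, 259, 257 and 252 in Nuclear_Het and 370.4, 378 and 374 in Nuclear_Hom. In total RNA it stood at 309, 293 and 294 CPM in Total_WT, 1121, 1093 and 1115 in Total_Het and 351, 345 and 356 in Total_Hom. Total_Het and Nuclear_WT were the 2 high groups and no other group overlapped them. In Hom it was 1.46-fold higher (log2 0.55, SE 0.024, edgeR adjusted p = 7.48e-36) than in Het in nuclear RNA, and 3.15-fold lower (log2 -1.66, SE 0.019, edgeR adjusted p = 3.98e-117) in total RNA.

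Slc22a12 stood at 1329.7, 1305 and 1297 CPM in the Nuclear_WT libraries, 515, 512 and 493 in Nuclear_Het and 818, 816 and 793 in Nuclear_Hom. Its total levels were 708, 697 and 723 CPM in Total_WT, 1627, 1580.3 and 1605 in Total_Het and 476, 489 and 480.5 in Total_Hom. Total_Het, Nuclear_WT and Nuclear_Hom were the highest groups, as for Slc22a6, and no groups overlapped. Relative to Het it was 1.6-fold higher (log2 0.68, SE 0.022, edgeR adjusted p = 2.00e-45) in nuclear Hom and 3.32-fold lower (log2 -1.73, SE 0.017, edgeR adjusted p = 2.63e-128) in total Hom. Slc22a7, the anion carrier OAT2, stood at 64.6, 67.3 and 67.2 CPM in the Nuclear_WT libraries, 58.4, 60.4 and 59.3 in Nuclear_Het and 92.2, 98.9 and 94.9 in Nuclear_Hom. In the other fraction it stood at 206, 206 and 214 CPM in Total_WT, 139, 132 and 127 in Total_Het and 31.4, 31.4 and 31.1 in Total_Hom. Here Total_WT was highest, and Total_Hom was lowest of all groups. Hom was 1.61-fold higher (log2 0.68, SE 0.038, edgeR adjusted p = 2.50e-29) than Het in nuclear RNA and 4.23-fold lower (log2 -2.08, SE 0.038, edgeR adjusted p = 5.00e-95) in total RNA.

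The other abundant anion carriers varied less. Slc22a8, the basolateral carrier OAT3 and close relative of Slc22a6, averaged 514 ± 1.23, 574 ± 5.99 and 659 ± 3.63 CPM in nuclear RNA of WT, Het and Hom, and 505 ± 10.8, 393 ± 5.79 and 336 ± 3.12 CPM in total RNA (SD, n = 3). Its range over libraries was 333 to 663 CPM, against 252 to 1121 for Slc22a6. Hom exceeded Het in nuclear RNA (Slc22a8, log2 0.20, SE 0.023, edgeR adjusted p = 1.67e-12) and lay below it in total RNA (log2 -0.22, SE 0.021, edgeR adjusted p = 3.27e-18); the total difference was not called when library totals alone set the scale (-0.068). Slc22a19, a rodent carrier of steroid sulfates, averaged 185 ± 9.22, 136 ± 3.28 and 175 ± 6.26 CPM in nuclear RNA of WT, Het and Hom, and 276 ± 3.26, 143 ± 2.91 and 119 ± 0.982 CPM in total RNA. Slc22a13, the nicotinate and urate exchanger OAT10, averaged 99.7 ± 1.61, 114 ± 2.68 and 159.5 ± 3.88 CPM in nuclear RNA of WT, Het and Hom, and 173 ± 1.6, 105 ± 2.39 and 64.2 ± 0.246 CPM in total RNA. Both were highest in Total_WT and lowest in Total_Hom. Slc22a22, a prostaglandin carrier, averaged 121 ± 4.92, 64.5 ± 2.61 and 71.2 ± 3.01 CPM in nuclear RNA of WT, Het and Hom, and 75 ± 2.61, 144 ± 5.28 and 87.5 ± 4.55 CPM in total RNA, highest in Total_Het and lowest in Nuclear_Het. For these 3 genes Hom was higher than Het in nuclear RNA (log2 0.36, 0.49 and 0.14) and lower in total RNA (log2 -0.27, -0.70 and -0.72). The small nuclear rise of Slc22a22 was not called without Nuclear_Hom replicate 2 (0.11) or with library totals alone (0.088).

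The neighbouring chromosome 19 genes, rodent members of the organic anion branch whose substrates are less well known, split into opposite patterns. Slc22a30 stood at 93, 91.2 and 98.4 CPM in the Nuclear_WT libraries, 5.3, 4.57 and 4.44 in Nuclear_Het and 1.85, 1.97 and 1.99 in Nuclear_Hom. In total RNA its values were 3.12, 3.96 and 2.58 CPM in Total_WT, 181, 176 and 183 in Total_Het and 21.5, 19.2 and 20.6 in Total_Hom. The Nuclear_WT and Total_Het libraries stood well above all others, the Total_Hom libraries came next, and no groups overlapped. Hom was 2.47-fold lower (log2 -1.31, SE 0.16, edgeR adjusted p = 2.45e-12) than Het in nuclear RNA and 8.78-fold lower (log2 -3.13, SE 0.047, edgeR adjusted p = 6.87e-112) in total RNA. Slc22a28, whose promoter matches that of Slc22a30 at 96.0% of bases, stood at 112, 116 and 120.02 CPM in the Nuclear_WT libraries, 7.81, 5.54 and 7.43 in Nuclear_Het and 4.63, 4.55 and 4.75 in Nuclear_Hom. Its total values were 8.97, 8.02 and 8.67 CPM in Total_WT, 172, 182 and 177 in Total_Het and 19.9, 19.4 and 23 in Total_Hom. The order matched that of Slc22a30 except that Nuclear_Het and Total_WT changed places, and Hom was 1.5-fold lower (log2 -0.58, SE 0.12, edgeR adjusted p = 1.24e-05) than Het in nuclear and 8.48-fold lower (log2 -3.08, SE 0.047, edgeR adjusted p = 3.43e-111) in total RNA. Because transcripts of this pair share sequence, the 2 genes are not independent readings.

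Slc22a29, which shares 75.0% of its promoter bases with Slc22a28, went the other way. It stood at 7.61, 6.82 and 6.65 CPM in the Nuclear_WT libraries, 34.4, 31.3 and 33.9 in Nuclear_Het and 40.2, 43.5 and 42.4 in Nuclear_Hom. Total libraries gave 43.1, 49.3 and 41.5 CPM in Total_WT, 2.27, 2.84 and 3.43 in Total_Het and 5.88, 6.05 and 5.16 in Total_Hom. Its 3 high groups, Nuclear_Het, Nuclear_Hom and Total_WT, did not overlap the 3 low ones, and Total_Het was lowest. Hom exceeded Het in both fractions, being 1.27-fold higher (log2 0.34, SE 0.053, edgeR adjusted p = 6.46e-08) in nuclear and 2.02-fold higher (log2 1.01, SE 0.15, edgeR adjusted p = 1.54e-10) in total RNA. Slc22a27, which shares transcript sequence with Slc22a29, had low values with nearly the same order of groups, from 0.178 CPM in Total_Het to 3.34 in Total_WT. Its rise in Hom was 1.85-fold higher (log2 0.88, SE 0.28, edgeR adjusted p = 0.00484) in nuclear RNA and 4.61-fold higher (log2 2.20, SE 0.56, edgeR adjusted p = 1.85e-05) in total RNA, where the Het libraries held 9 counts in all.

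Slc22a26 stood at 28.7, 30.7 and 32.1 CPM in the Nuclear_WT libraries, 2.65, 3.5 and 2.67 in Nuclear_Het and 1.9, 2.27 and 2.04 in Nuclear_Hom. Total values were 9.63, 8.85 and 10.5 CPM in Total_WT, 22.9, 23.8 and 23.1 in Total_Het and 55.9, 57.5 and 56.5 in Total_Hom. It was the one gene of this neighbourhood that was highest in Total_Hom. Hom was 2.44-fold higher (log2 1.29, SE 0.055, edgeR adjusted p = 3.64e-50) than Het in total RNA. In nuclear RNA the difference was -0.50 (SE 0.17, edgeR adjusted p = 0.0129), and it was not called without Nuclear_Het replicate 2 (-0.36) or without Nuclear_Hom replicate 1 (-0.44). Slc22a19, at the edge of the same neighbourhood, varied by only 2.33 times between its highest and lowest group mean, against 93 times for Slc22a30.

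**Figure D3:**
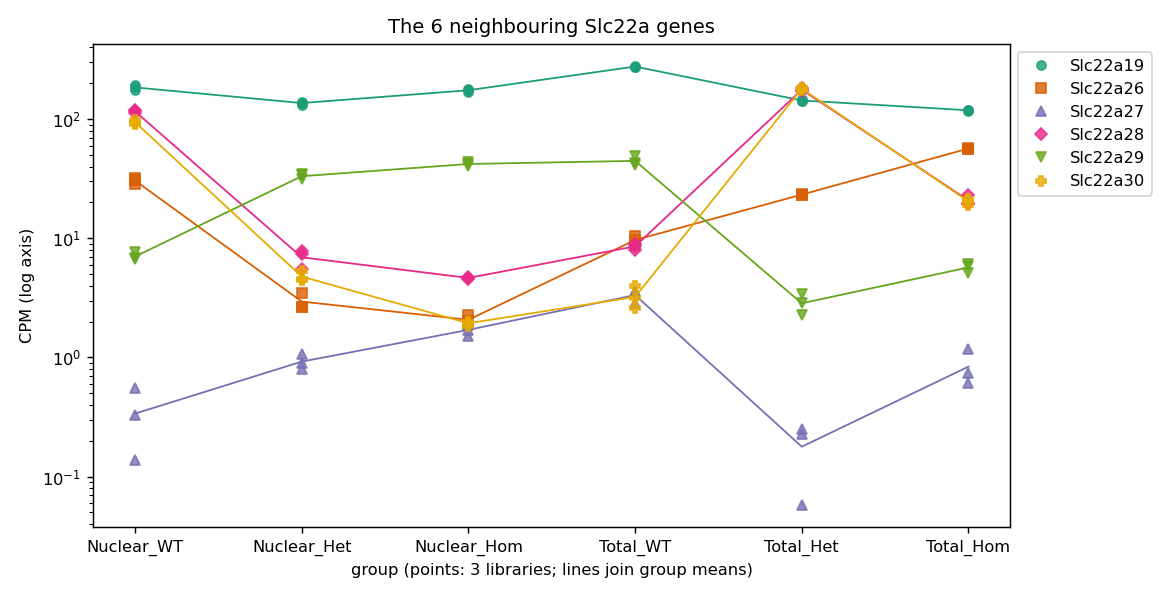
CPM (log axis) of the 6 neighbouring Slc22a genes in the 6 groups, with 1 point per library and lines joining group means. Slc22a28 and Slc22a30 run together and peak in Nuclear_WT and Total_Het, where Slc22a29 and Slc22a27 are low, and Slc22a19 stays between 118 and 279.5 CPM in every library.

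The organic cation and carnitine transporters comprised 9 members, of which 7 were tested. Between Hom and Het 4 were called higher and 0 lower in nuclear RNA, and 1 higher and 5 lower in total RNA. These calls made up 57.1% and 85.7% of the members tested, beside 43.2% and 67% of all genes. Slc22a2, the basolateral uptake carrier OCT2, stood at 293, 298 and 290.1 CPM in the Nuclear_WT libraries, 86.5, 82.8 and 87.2 in Nuclear_Het and 138, 130.02 and 131 in Nuclear_Hom. In total RNA it stood at 120.3, 120.4 and 121 CPM in Total_WT, 393, 400.1 and 393 in Total_Het and 51.7, 50.5 and 49.1 in Total_Hom. No groups overlapped, Total_Het and Nuclear_WT were highest and Total_Hom was lowest. Hom was 1.56-fold higher (log2 0.64, SE 0.032, edgeR adjusted p = 1.26e-31) than Het in nuclear and 7.82-fold lower (log2 -2.97, SE 0.029, edgeR adjusted p = 4.74e-128) in total RNA.

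Slc47a1, the apical proton exchanger MATE1 that completes cation secretion, averaged 592 ± 1.27, 422 ± 4.89 and 429 ± 1.39 CPM in nuclear RNA of WT, Het and Hom, and 301 ± 5.8, 651 ± 5.94 and 395 ± 6.67 CPM in total RNA (SD, n = 3). In total RNA Slc47a1 was 1.64-fold lower (log2 -0.72, SE 0.021, edgeR adjusted p = 3.38e-68) in Hom than in Het, while the nuclear difference did not pass the test (log2 0.022, SE 0.023, edgeR adjusted p = 0.478). The 2 steps of cation secretion thus differed in size, with Slc22a2 changing far more than Slc47a1 between the same libraries; the difference between these genes was not tested.

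Slc22a5, the carnitine carrier OCTN2, averaged 271 ± 2.38, 167 ± 3.62 and 205 ± 5.04 CPM in nuclear RNA of WT, Het and Hom, and 155 ± 5.08, 205 ± 1.77 and 169 ± 0.922 CPM in total RNA. Slc22a4, the ergothioneine carrier OCTN1 encoded beside it on chromosome 11, averaged 84.9 ± 1.28, 56.8 ± 1.37 and 84.7 ± 2.34 CPM in nuclear RNA of WT, Het and Hom, and 59 ± 0.943, 99.5 ± 1.77 and 65.6 ± 4.39 CPM in total RNA. Both were higher in nuclear Hom than in nuclear Het (log2 0.29 and 0.58) and lower in total Hom than in total Het (log2 -0.27 and -0.60). Slc22a21, the third gene of that locus and a carnitine carrier, averaged 4.39 ± 0.583, 4.62 ± 0.316 and 4.45 ± 0.298 CPM in nuclear RNA of WT, Het and Hom, and 3.71 ± 0.212, 3.63 ± 0.367 and 7.08 ± 1.08 CPM in total RNA. It was 1.95-fold higher (log2 0.96, SE 0.14, edgeR adjusted p = 5.31e-10) in total Hom than in total Het. Slc22a3, the extraneuronal monoamine carrier OCT3, averaged 0.971 to 4.38 CPM and was not called between Hom and Het in either fraction (edgeR adjusted p = 0.424 in nuclear and 0.142 in total RNA). The total difference was called without Total_Hom replicate 2 (0.79) and with library totals alone (0.65).

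Of 6 other Slc22 members 5 were tested. Slc22a18, an imprinted gene of poorly known substrate, averaged 543 ± 6.43, 329.6 ± 12.1 and 431 ± 11.6 CPM in nuclear RNA of WT, Het and Hom, and 351 ± 10.9, 518 ± 9.09 and 278 ± 0.489 CPM in total RNA. It was 1.31-fold higher (log2 0.38, SE 0.025, edgeR adjusted p = 2.34e-24) in nuclear Hom than in nuclear Het and 1.85-fold lower (log2 -0.89, SE 0.022, edgeR adjusted p = 2.05e-76) in total RNA. Slc22a23, an orphan member, averaged 108 ± 2.03, 91.7 ± 3.65 and 94.3 ± 2.67 CPM in nuclear RNA of WT, Het and Hom, and 96.4 ± 2.71, 73.2 ± 2.92 and 70.1 ± 2.49 CPM in total RNA. Slc22a17, a receptor for lipocalin 2, averaged 43.2 ± 0.398, 35.2 ± 2.06 and 36 ± 1.09 CPM in nuclear RNA of WT, Het and Hom, and 39.4 ± 1.39, 40.1 ± 0.827 and 26.5 ± 0.163 CPM in total RNA. Slc22a15, another member of uncertain substrate, averaged 4.83 ± 0.335, 6.48 ± 0.774 and 6.34 ± 0.524 CPM in nuclear RNA of WT, Het and Hom, and 6.59 ± 0.246, 5.01 ± 0.536 and 6.77 ± 0.281 CPM in total RNA. Among these last 3 none was called in nuclear RNA of Hom against Het, and in total RNA Slc22a17 fell (log2 -0.59) and Slc22a15 rose (log2 0.44).

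Among the 15 organic anion transporting polypeptides 8 were tested. Of these, 3 were called higher and 3 lower in Hom than in Het in nuclear RNA, and 2 higher and 4 lower in total RNA. In each fraction 75% were called, beside 43.2% of all genes in nuclear and 67% in total RNA. Slco1a1, the uptake carrier Oatp1 of mouse kidney and liver, had the widest range of any member. It stood at 238, 235 and 242 CPM in the Nuclear_WT libraries, 10.4, 11 and 9.79 in Nuclear_Het and 0.51, 0.306 and 0.522 in Nuclear_Hom. In total RNA it stood at 1.21, 1.09 and 1.22 CPM in Total_WT, 703, 735 and 725 in Total_Het and 46.4, 45.5 and 49.9 in Total_Hom. The 6 groups did not overlap and spanned a ratio of 1617 between the means of Total_Het and Nuclear_Hom. Hom was 23.3-fold lower (log2 -4.54, SE 0.25, edgeR adjusted p = 1.35e-43) than Het in nuclear RNA and 15.2-fold lower (log2 -3.93, SE 0.028, edgeR adjusted p = 7.06e-146) in total RNA. The 3 Nuclear_Hom libraries held 28 counts of it together and the 3 Total_WT libraries 70, so the folds against these groups rest on few counts. Between the nuclear groups the Y-linked sum fell as well, from 2.59 CPM in Het to 0.609 in Hom, and its part was not tested.

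Slco1a6, the kidney member Oatp5 encoded beside it, averaged 151 ± 4.51, 209 ± 3.73 and 309.5 ± 10.2 CPM in nuclear RNA of WT, Het and Hom, and 417 ± 4.04, 226 ± 4.95 and 116 ± 2.76 CPM in total RNA (SD, n = 3). It was highest in Total_WT, where Slco1a1 was nearly lowest. In Hom it was 1.48-fold higher (log2 0.57, SE 0.028, edgeR adjusted p = 3.39e-32) than in Het in nuclear RNA and 1.95-fold lower (log2 -0.96, SE 0.026, edgeR adjusted p = 1.42e-72) in total RNA. Slco1a4, the uptake carrier Oatp2 of the same locus, averaged 1.71 to 4.88 CPM, with a nuclear rise (log2 0.64) and a total fall (log2 -1.21) in Hom.

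Slco3a1, a prostaglandin and thyroxine carrier, averaged 159 ± 1.67, 75 ± 1.73 and 67.4 ± 2.75 CPM in nuclear RNA of WT, Het and Hom, and 76.4 ± 2.02, 249 ± 2.25 and 141 ± 3.86 CPM in total RNA. Slco2a1, the prostaglandin transporter, averaged 33 ± 1.01, 47.1 ± 1.75 and 46.2 ± 0.755 CPM in nuclear RNA of WT, Het and Hom, and 65.2 ± 1.66, 32.1 ± 0.339 and 63.1 ± 1.17 CPM in total RNA. Slco2b1, a steroid sulfate carrier, averaged 25.5 ± 1.11, 23.4 ± 0.907 and 24 ± 0.972 CPM in nuclear RNA of WT, Het and Hom, and 38.6 ± 1.51, 33.9 ± 0.746 and 35.8 ± 3.56 CPM in total RNA. In total RNA of Hom against Het Slco3a1 fell (log2 -0.81), Slco2a1 rose (log2 0.98) and Slco2b1 was not called (edgeR adjusted p = 0.161), except without Total_Hom replicate 3 (0.15) or with library totals alone (0.24). Slco4a1, a thyroid hormone carrier, averaged 31 ± 1.68, 51.6 ± 2.29 and 30.1 ± 0.3996 CPM in nuclear RNA of WT, Het and Hom, and 46 ± 1.15, 29.7 ± 0.202 and 42 ± 1.5 CPM in total RNA. Slco4c1, the basolateral kidney carrier of cardiac glycosides and thyroid hormone, averaged 6.98 ± 0.42, 9.94 ± 0.396 and 13.1 ± 0.762 CPM in nuclear RNA of WT, Het and Hom, and 11.6 ± 0.625, 4.19 ± 0.555 and 4.65 ± 0.524 CPM in total RNA. Slco4a1 was 1.71-fold lower (log2 -0.78, SE 0.051, edgeR adjusted p = 7.46e-25) in nuclear Hom than in nuclear Het and 1.42-fold higher (log2 0.51, SE 0.053, edgeR adjusted p = 1.72e-16) in total RNA. Slco4c1 was 1.32-fold higher (log2 0.40, SE 0.088, edgeR adjusted p = 8.46e-05) in nuclear Hom and was not called in total RNA (edgeR adjusted p = 0.345).

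The multidrug resistance proteins, ATP-driven exporters of conjugated anions, comprised 8 members, of which 7 were tested. In total RNA of Hom against Het 5 were called higher and 0 lower, with a median log2 of 0.58. The share called, 71.4%, was close to the 67% of all genes, of which 32.9% were higher and 34.1% lower. In the same comparison the medians of endothelial, collecting duct, podocyte and erythroid markers were 0.62, 0.79, 0.56 and 0.33. Those of proximal tubule, thick ascending limb and distal, and mesangial and stromal markers were -0.96, -0.050 and -0.13. Immune and hepatocyte markers had medians of -0.011 and -0.22. The part of these lists was not tested. In nuclear RNA 1 was higher and 2 lower (42.9% called, beside 43.2% of all genes), with a median of -0.0083. The higher one, Abcc6, was not called by DESeq2 (0.33) or without Nuclear_Het replicate 1 (0.27) or Nuclear_Hom replicate 3 (0.28). Abcc4 was called lower as well under some alternatives, among them library totals alone (-0.12) and a replicate block (-0.066). Over all genes tested the medians were 0.0062 in total and -0.0010 in nuclear RNA. Abcc3, the basolateral exporter MRP3 of glucuronides, stood at 12.5, 12.6 and 11.8 CPM in the Nuclear_WT libraries, 78.9, 86 and 82 in Nuclear_Het and 88.5, 79.5 and 79.1 in Nuclear_Hom. In total RNA it stood at 136, 131 and 133 CPM in Total_WT, 12.8, 12.7 and 11.8 in Total_Het and 35.8, 37.1 and 35.3 in Total_Hom. Nuclear_WT and Total_Het shared the lowest level and overlapped, as did Nuclear_Het and Nuclear_Hom at a level several times higher. Hom was 2.9-fold higher (log2 1.54, SE 0.066, edgeR adjusted p = 1.00e-51) than Het in total RNA, while in nuclear RNA the groups overlapped (log2 0.0019, SE 0.039, edgeR adjusted p = 0.974).

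Abcc2, the apical exporter MRP2 of glutathione and glucuronide conjugates, averaged 186 ± 3.57, 152 ± 2.44 and 143 ± 1.43 CPM in nuclear RNA of WT, Het and Hom, and 107 ± 2.86, 200.4 ± 2.96 and 213 ± 3.87 CPM in total RNA (SD, n = 3). Abcc4, the apical exporter MRP4 of cyclic nucleotides and urate, averaged 114 ± 2.39, 231 ± 3.26 and 221 ± 6.5 CPM in nuclear RNA of WT, Het and Hom, and 131 ± 4.7, 64.8 ± 1.75 and 103 ± 0.568 CPM in total RNA. The 2 apical exporters thus had different orders, with Abcc2 lowest in Total_WT and Abcc4 lowest in Total_Het. Abcc4 was 1.59-fold higher (log2 0.67, SE 0.035, edgeR adjusted p = 2.00e-39) in total Hom than in total Het. Abcc2 differed little between Hom and Het in either fraction, by log2 -0.09 in nuclear and 0.094 in total RNA, although both were called. With library totals alone these values were -0.15 and 0.25, and the nuclear call was lost without Nuclear_Het replicate 3 (-0.078).

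Abcc1, the basolateral exporter MRP1 of leukotrienes and glutathione conjugates, averaged 50.7 ± 0.751, 58.2 ± 0.782 and 57.9 ± 0.741 CPM in nuclear RNA of WT, Het and Hom, and 59.4 ± 2.12, 44 ± 2.31 and 65.3 ± 2.07 CPM in total RNA. Abcc5, an exporter of cyclic nucleotides, averaged 47.8 ± 1.53, 58.6 ± 2.68 and 51.1 ± 0.756 CPM in nuclear RNA of WT, Het and Hom, and 49.8 ± 1.15, 41.3 ± 2.42 and 71.5 ± 4.1 CPM in total RNA. Both were highest in Total_Hom and were 1.49-fold higher and 1.74-fold higher there than in Total_Het. Abcc6, a liver and kidney protein tied to ATP release, averaged 5.29 ± 0.403, 5.58 ± 0.364 and 7.01 ± 0.477 CPM in nuclear RNA of WT, Het and Hom, and 4.19 ± 0.352, 6.42 ± 1.1 and 7.52 ± 0.764 CPM in total RNA. Abcc10, a broad drug exporter, averaged 19.5 ± 0.708, 19.2 ± 0.479 and 21 ± 2.33 CPM in nuclear RNA of WT, Het and Hom, and 19.2 ± 1.14, 19.8 ± 0.209 and 19.9 ± 0.904 CPM in total RNA and was called in none of the 6 genotype comparisons within a fraction (edgeR adjusted p from 0.108 to 0.864). It was called in nuclear Hom against WT with library totals alone (0.24), and without Nuclear_Hom replicate 3 in nuclear Hom against both WT and Het (0.20 and 0.21); nuclear Het against WT was called with library totals alone (0.16, opposite in sign). The sulfonylurea receptors, regulatory subunits of potassium channels that share the Abcc name, include Abcc9, which averaged 18.9 ± 0.996, 8.57 ± 0.672 and 9.08 ± 0.635 CPM in nuclear RNA of WT, Het and Hom, and 8.64 ± 0.469, 16.5 ± 0.763 and 19.6 ± 0.973 CPM in total RNA, and the sparse Abcc8, with group means of 0.612 to 2.1 CPM. Abcc8 was 1.77-fold lower (log2 -0.82, SE 0.24, edgeR adjusted p = 0.00258) in nuclear Hom than in nuclear Het and 3.09-fold higher (log2 1.63, SE 0.33, edgeR adjusted p = 8.59e-07) in total RNA.

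Of the P-glycoproteins and canalicular exporters 3 of 5 were tested. Abcb1b, the more abundant P-glycoprotein gene in these libraries, an apical exporter of hydrophobic drugs, stood at 96, 96.8 and 98.3 CPM in the Nuclear_WT libraries, 336, 338 and 339 in Nuclear_Het and 286, 273 and 283 in Nuclear_Hom. In total RNA it stood at 196, 196 and 192 CPM in Total_WT, 61.7, 62.6 and 58.7 in Total_Het and 80.8, 79.6 and 82.9 in Total_Hom. No groups overlapped, and the highest were Nuclear_Het and Nuclear_Hom. Hom was 1.21-fold lower (log2 -0.27, SE 0.027, edgeR adjusted p = 4.61e-15) than Het in nuclear RNA and 1.33-fold higher (log2 0.42, SE 0.036, edgeR adjusted p = 2.23e-21) in total RNA. Abcb1a, the second P-glycoprotein gene, averaged 10.6 ± 0.946, 22 ± 2.44 and 23.8 ± 1.43 CPM in nuclear RNA of WT, Het and Hom, and 18.6 ± 1.001, 8.01 ± 0.447 and 9.46 ± 0.955 CPM in total RNA (SD, n = 3), with a nuclear difference between Hom and Het that did not pass the test (edgeR adjusted p = 0.203) but was called without Nuclear_Het replicate 2 (0.20). Its total difference (log2 0.24) was called, but not without Total_Het replicate 1 (0.21), Total_Het replicate 3 (0.23) or Total_Hom replicate 3 (0.17), nor by DESeq2 (0.24).

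The 5 ABCB proteins of mitochondria and lysosomes differed by small amounts. In total RNA of Hom against Het all 5 were called lower, with a median log2 of -0.35, and in nuclear RNA 2 were called higher and 0 lower. Over all genes 67% were called in total RNA and 43.2% in nuclear RNA, the latter close to the 40% of these members. Abcb8, a mitochondrial inner membrane protein, averaged 89.6 ± 1.79, 58.8 ± 2.18 and 70.4 ± 2.18 CPM in nuclear RNA of WT, Het and Hom, and 66.5 ± 3.31, 83.3 ± 2.02 and 62.5 ± 1.48 CPM in total RNA. Abcb10, which acts in mitochondrial haem biology, averaged 48.1 ± 0.583, 39.3 ± 1.42 and 39.4 ± 0.773 CPM in nuclear RNA of WT, Het and Hom, and 38.4 ± 0.538, 48.4 ± 1.19 and 42.5 ± 1.41 CPM in total RNA. Abcb6, a porphyrin transporter, averaged 66.2 ± 1.35, 43.5 ± 0.881 and 53.7 ± 1.12 CPM in nuclear RNA of WT, Het and Hom, and 49.4 ± 1.38, 56.7 ± 1.46 and 44.3 ± 1.2 CPM in total RNA. Abcb9, a lysosomal peptide carrier, averaged 13 ± 0.587, 9.8 ± 0.253 and 10.9 ± 0.895 CPM in nuclear RNA of WT, Het and Hom, and 10.4 ± 0.809, 9.64 ± 0.562 and 8.14 ± 0.482 CPM in total RNA. The total fall of Abcb9 (log2 -0.24) was not called by DESeq2 (-0.24), at a mean of at least 5 CPM (-0.21), without Total_Het replicate 1 or 3, or without Total_Hom replicate 1 or 2 (-0.19, -0.24, -0.21 and -0.22). With library totals alone as the scale, the falls of Abcb9 and Abcb10 were not called (-0.087 and -0.029), those of Abcb6 and Abcb8 were -0.20 and -0.26, and the median of the 5 was -0.20.

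**Figure D4:**
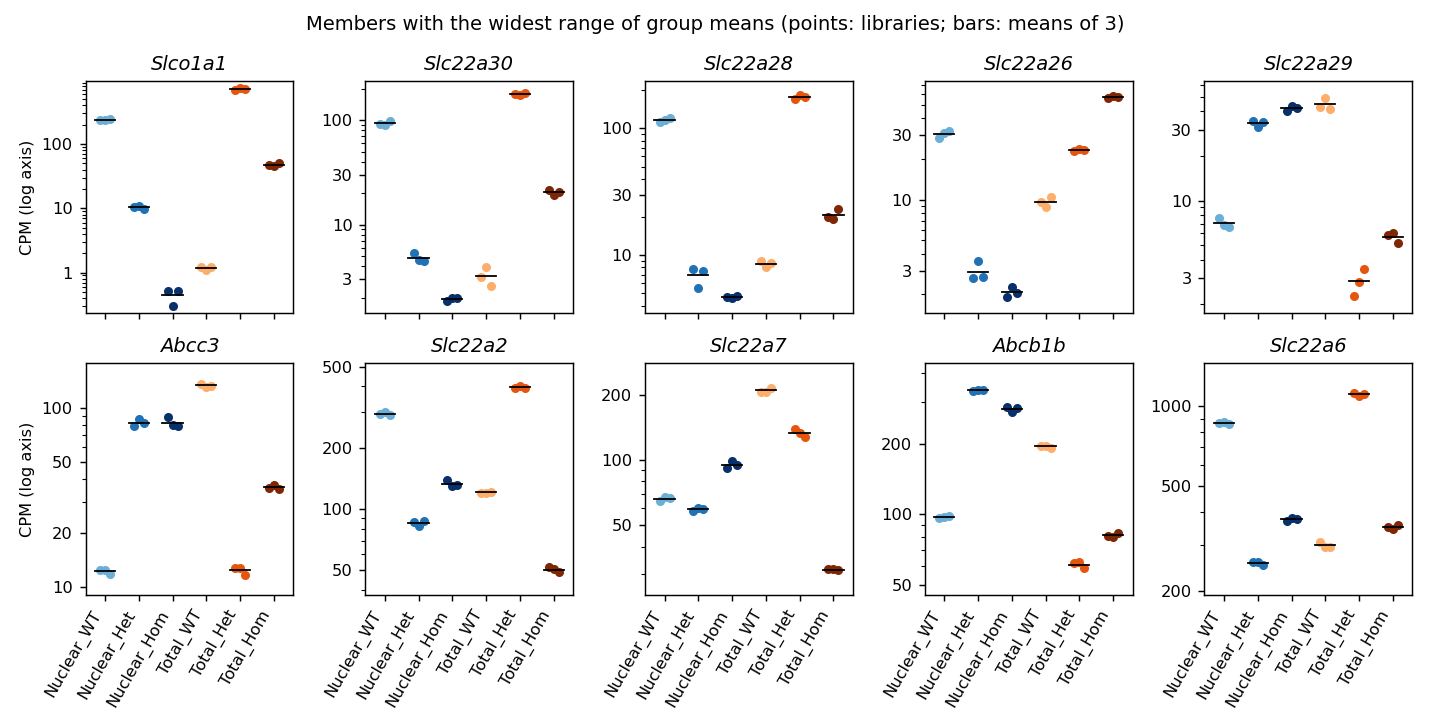
CPM (log axis, scaled to each gene) of the 10 members with the widest range of group means, with 1 point per library and a bar at each group mean. The 3 libraries of a group lie close together, and Slco1a1, Slc22a28 and Slc22a30 are highest in Total_Het and Nuclear_WT whereas Abcc3, Slc22a29 and Abcb1b are low there.

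Comparisons with WT ask what carrying the allele changes. In nuclear RNA both mutant genotypes had lower Slco1a1, Slc22a30, Slc22a28 and Slc22a26 and higher Abcc3, Slc22a29, Slc22a3 and Abcb1b than WT. In total RNA each of these 8 genes differed from WT in the opposite direction in both genotypes, Slco1a1, Slc22a28, Slc22a30 and Slc22a3 with the limits given below. In nuclear RNA 42 of 49 members were called in Hom against WT, 20 higher and 22 lower, beside 54.3% of all genes tested (26.5% higher and 27.8% lower), and 45 in Het against WT, 20 higher and 25 lower, beside 64.6% (32.8% and 31.7%). In total RNA 42 were called in Hom against WT, 18 higher and 24 lower, beside 61.6% (30.6% and 31%), and 41 in Het against WT, 21 higher and 20 lower, beside 61.1% (30.9% and 30.3%). Changes of at least 2-fold were called for 18 members in each of the 4 comparisons, beside 6.34%, 11.7%, 7.33% and 7.91% of all genes in that order. Het and Hom share their WT libraries, so their values are given side by side only. In each of these comparisons Xist differed as given above.

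In nuclear RNA Slco1a1 was 533-fold lower (log2 -9.06, SE 0.24, edgeR adjusted p = 4.56e-92) in Hom than in WT and 22.9-fold lower (log2 -4.52, SE 0.059, edgeR adjusted p = 1.83e-85) in Het. Slc22a30 was 48.5-fold lower (log2 -5.60, SE 0.13, edgeR adjusted p = 4.39e-75) in Hom and 19.6-fold lower (log2 -4.29, SE 0.091, edgeR adjusted p = 3.10e-71) in Het. Slc22a28 fell, with log2 values of -4.64 and -4.06, and so did Slc22a26, with -3.87 and -3.37, Hom before Het. Among the secretory carriers Slc22a6 fell (log2 -1.21 and -1.75), as did Slc22a2 (-1.14 and -1.78) and Slc22a12 (-0.69 and -1.37). Slco3a1 fell too (-1.24 and -1.08). Tubule markers were lower as well, 15 of 20 in Hom and 18 of 20 in Het. Immune markers were higher, 7 of 10 in Hom (median log2 0.38) and 9 of 10 in Het, all 9 by at least 2-fold (median log2 2.09). The part of either list was not tested.

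The nuclear rises were led by Abcc3, 6.71-fold higher (log2 2.75, SE 0.063, edgeR adjusted p = 3.01e-60) in Hom and 6.7-fold higher (log2 2.74, SE 0.063, edgeR adjusted p = 4.03e-60) in Het. Slc22a29 rose by log2 values of 2.57 and 2.23, Abcb1b by 1.53 and 1.80, and Slc22a3 by 2.09 and 1.93, Hom before Het. Slc22a27 rose by 2.37 and 1.49. Abcc8 rose in Het (log2 1.55). Its nuclear difference in Hom (log2 0.73) was not called by DESeq2 (0.74), without Nuclear_WT replicate 2 (0.72) or 3 (0.59), or without Nuclear_Hom replicate 2 (0.71) or 3 (0.70).

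In total RNA Slco1a1 was 40.2-fold higher (log2 5.33, SE 0.096, edgeR adjusted p = 2.42e-121) in Hom than in WT and 611-fold higher (log2 9.25, SE 0.095, edgeR adjusted p = 1.35e-167) in Het. Slc22a30 was 6.38-fold higher (log2 2.67, SE 0.11, edgeR adjusted p = 5.98e-59) and 56.1-fold higher (log2 5.81, SE 0.10, edgeR adjusted p = 6.46e-127), and Slc22a28 2.43-fold higher (log2 1.28, SE 0.076, edgeR adjusted p = 6.65e-36) and 20.6-fold higher (log2 4.37, SE 0.066, edgeR adjusted p = 2.40e-121), Hom before Het. Each of the 3 was far higher in Het than in Hom, as the direct comparison above shows. The size of these values depends on how Total_WT replicate 1 is read. The deposited column of this library holds 10.2 times the counts of the others, and none of its genes lies below the sum of the 9 nuclear columns, which was subtracted here. With that column as deposited, log2 in Hom against WT was 0.76 for Slco1a1, 0.41 for Slc22a30 and -0.023 for Slc22a28, none of them called, and in Het against WT it was 4.68 for Slco1a1 and 3.54 for Slc22a30, both called. Without this library at all the Hom values were 5.35, 2.66 and 1.32, in the same order of genes.

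Slc22a26 rose by log2 2.55 in Hom and 1.26 in Het, and Abcc8 rose in Hom (1.35). Slc22a6, Slc22a2 and Slc22a12 rose in Het (log2 1.90, 1.71 and 1.18). In Hom their differences were 0.24, -1.25 and -0.55, so that Slc22a2 and Slc22a12 lay above WT in Het and below it in Hom. The Slc22a6 value in Hom became -0.0013 with the deposited column. The falls were led by Slc22a29 (log2 -2.96 in Hom and -3.97 in Het), Slc22a27 (-1.98 and -4.19) and Abcc3 (-1.88 and -3.41). Slc22a7 also fell (log2 -2.73 in Hom and -0.65 in Het), the Het value being lost with the deposited column (-0.34). Slco1a6 fell in Hom (-1.84), and Slco4c1 in Hom and Het (-1.31 and -1.46). Abcb1b fell (log2 -1.26 and -1.67), the reverse of its nuclear rise. Slc22a3 fell (log2 -0.80 and -1.29), the Hom value being lost without Total_WT replicate 1 (-0.60) or Total_Hom replicate 2 (-0.49) and larger without Total_Hom replicate 1 (-1.27). Tubule markers were higher in 14 of 20 and lower in 5 in Het, and higher in 8 and lower in 12 in Hom. Podocyte and collecting duct markers were lower in Het, 11 of 12 (median log2 -0.82) and 8 of 8 (-0.71), and their part was not tested.

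**Figure D5:**
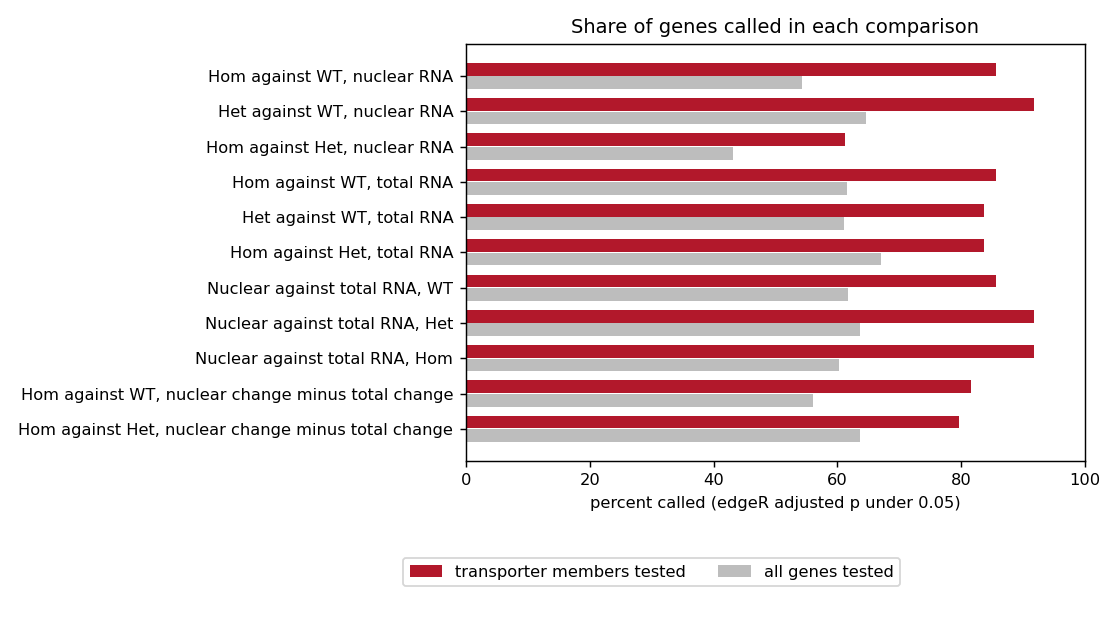
Percent of tested transporter members (red) and of all tested genes (grey) called by edgeR at an adjusted p under 0.05, for each of the 11 comparisons. The members' share is above that of all genes in every comparison, from 61.2% to 91.8% against 43.2% to 67%. The 2 shares are not matched for level. At least 5 CPM was reached by 42 of 49 tested members, against 11526 of 15410 genes tested in all 18 libraries.

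Nuclear against total RNA within a genotype asks how far a transcript is held in the nucleus, but here the 2 fractions of each genotype also differed in Xist and Y-linked counts. In WT 42 of 49 members were called, 24 higher in nuclear RNA and 18 lower, beside 61.7% of all genes (30.9% higher and 30.8% lower). In Het 45 were called, 19 higher and 26 lower, beside 63.6% (33.4% and 30.2%), and in Hom 45, 29 higher and 16 lower, beside 60.3% (30.5% and 29.8%). At least 2-fold differences were called for 16, 20 and 19 members, beside 9.71%, 11.1% and 7.64% of all genes. Directions turned over between genotypes. Slco1a1 had a nuclear-to-total log2 of 7.66 (SE 0.12) in WT, -6.11 (SE 0.048) in Het and -6.73 (SE 0.19) in Hom. Slc22a30 gave 4.87, -5.23 and -3.40, Slc22a28 3.76, -4.67 and -2.16, and Slc22a26 1.65, -2.98 and -4.77, in the same order of genotypes. In WT the deposited column of Total_WT replicate 1 would give 2.96 for Slco1a1, 2.51 for Slc22a30 and 2.38 for Slc22a28.

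The opposite turn was seen for Abcc3, with -3.43 in WT, 2.72 in Het and 1.19 in Hom, and for Slc22a29, with -2.66, 3.55 and 2.88. Slc22a27 gave -3.33, 2.34 and 1.03, the Hom value not being called with Total_WT replicate 1 as deposited (1.03). Abcb1b gave -1.005, 2.47 and 1.79, and Slc22a3 -1.20, 2.02 and 1.69. Slc22a6 was 2.9-fold higher in nuclear RNA of WT, 4.33-fold lower in Het and only slightly higher in Hom (log2 0.094, not called with the deposited column). Slc22a2 gave 1.28, -2.21 and 1.40, and Slc22a7 -1.66, -1.16 and 1.61. Other large differences were those of Slco1a4 in WT (-1.50), Slco4c1 in Hom (1.49) and Abcc9 in Hom (-1.10). Tubule markers were higher in nuclear RNA in 18 of 20 in WT, 2 of 20 in Het and 14 of 20 in Hom. Immune markers were higher there in 0, 9 and 1 of 10 and lower in 10, 1 and 9, in that order, and the part of either list was not tested.

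Whether the genotype difference itself differed between the fractions was tested as an interaction, the log2 difference in nuclear minus that in total RNA. In Hom against WT 40 members were called, 20 with a positive and 20 with a negative value, beside 56.1% of all genes (28.4% and 27.7%), and 23 of them exceeded 2-fold, beside 12.3%. Slc22a29 (5.54) and Abcc3 (4.63) led the positive values, and Slco1a1 (-14.38) and Slc22a30 (-8.27) the negative ones; with Total_WT replicate 1 as deposited they were -9.69 for Slco1a1 and -5.91 for Slc22a30. In Hom against Het, where the nuclear pair is high and the total pair low in Xist, fraction and Xist status cannot be told apart. Here 39 were called, 24 positive and 15 negative, beside 63.6% (31.7% and 31.9%), and 18 exceeded 2-fold, beside 16.4%. The positive values in Hom against Het were led by Slc22a2 (log2 3.61, SE 0.044, edgeR adjusted p = 3.29e-118), Slc22a7 (log2 2.77, SE 0.054, edgeR adjusted p = 1.20e-91) and Slc22a28 (log2 2.51, SE 0.12, edgeR adjusted p = 1.97e-38). Those of Slc22a12 and Slc22a6 were 2.41 and 2.21. Negative values were led by Abcc8 (log2 -2.44, SE 0.40, edgeR adjusted p = 8.45e-09), Slc22a26 (log2 -1.79, SE 0.18, edgeR adjusted p = 1.62e-17) and Abcc3 (log2 -1.53, SE 0.077, edgeR adjusted p = 3.15e-43). Tubule markers had positive values in 18 of 20, which goes with the direction of Slc22a2, Slc22a6, Slc22a7 and Slc22a12, and their part was not tested. Slco1a1, lower in Hom in both fractions, had a value of -0.61, which was called, but not without Nuclear_Hom replicate 2 (-0.39).

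Genes that work with these carriers were described in 3 lists. Of 17 other transporters of drugs, urate, nucleosides and bile acids 15 were tested. Between Hom and Het 10 were called higher and 0 lower in nuclear RNA, and 4 higher and 8 lower in total RNA, with medians of log2 0.17 and -0.38, beside the medians of all genes given above. Slc17a3, an apical urate and anion exporter, averaged 631 CPM in Total_Het and 111 in Total_Hom (log2 -2.51, SE 0.023, edgeR adjusted p = 1.96e-129). Slc51a, a subunit of the basolateral steroid and bile acid exporter, averaged 102 and 6.18 CPM (log2 -4.04, SE 0.081, edgeR adjusted p = 7.57e-104). Abcg2, the apical urate and drug exporter, averaged 401 and 207 CPM (log2 -0.94, SE 0.023, edgeR adjusted p = 2.98e-76). These falls run the same way as that of Slc22a12. In nuclear RNA the smallest p values were those of the monocarboxylate carrier gene Slc16a9 (log2 0.52, SE 0.035, edgeR adjusted p = 3.93e-24) and of Slc51b, the partner of Slc51a (log2 0.53, SE 0.064, edgeR adjusted p = 1.22e-11).

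Of 10 genes of the driving force and scaffold of anion exchange all were tested. In Hom against Het 9 were higher and 0 lower in nuclear RNA, and 2 higher and 7 lower in total RNA, with medians of log2 0.24 and -0.21. Pdzk1, the apical scaffold that holds Slc22a12 and other carriers, was higher in nuclear Hom (log2 0.56, SE 0.020, edgeR adjusted p = 9.38e-42) and lower in total Hom (log2 -1.07, SE 0.016, edgeR adjusted p = 1.32e-105). Slc13a3, the basolateral carrier that supplies dicarboxylate for anion exchange, was higher in nuclear Hom (log2 0.69, SE 0.022, edgeR adjusted p = 1.72e-45), and Slc13a2, its apical counterpart, likewise (log2 0.99, SE 0.053, edgeR adjusted p = 1.45e-30).

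Among 22 transcription factors and hormone receptors known for roles in drug transport or sex-dependent expression 21 were tested. In Hom against Het 9 were higher and 3 lower in nuclear RNA, and 8 higher and 10 lower in total RNA, with medians of log2 0.062 and -0.058. Prlr, the prolactin receptor, averaged 30.1, 163 and 260.5 CPM in nuclear RNA of WT, Het and Hom, and 324, 5.34 and 14.9 CPM in total RNA. Its 3 high groups are those in which Slc22a29 and Abcc3 were high. Hom exceeded Het in both fractions (log2 0.67, SE 0.032, edgeR adjusted p = 6.80e-31 in nuclear and log2 1.49, SE 0.080, edgeR adjusted p = 7.85e-41 in total RNA). Ghr, the growth hormone receptor, rose in nuclear Hom (log2 0.28, SE 0.023, edgeR adjusted p = 7.36e-19) and fell in total Hom (log2 -0.90, SE 0.018, edgeR adjusted p = 3.92e-88). Ppara, a fatty acid receptor, rose in nuclear Hom (log2 0.47, SE 0.032, edgeR adjusted p = 1.12e-23). Esr1, the estrogen receptor, fell in total Hom (log2 -1.21, SE 0.086, edgeR adjusted p = 6.65e-28).

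The remaining members were sparse. Of 7 tested members under 5 CPM, Abcb4, the phosphatidylcholine exporter, and Slc22a14 averaged under 1 CPM, and neither was called in Hom against Het in either fraction. The 14 members not tested reached group means of at most 0.505 CPM, that of the pseudogene Slc22a13b-ps in Total_WT. They include Abcb11, the bile salt export pump of liver, Slco1b2, a liver uptake carrier, Slco1c1, a thyroxine carrier of brain vessels, and Slc47a2, the second MATE exchanger. Slc22a16, Slco6c1 and Slco6d1 had no count in any library, which allows each up to 3 counts per library.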

How the data were processed

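RNA-seq counts per gene were used from 18 libraries, 3 in each of 6 groups taken from the labels. The deposited counts are whole reads per gene; per the submitters' processing notes, CASAVA, STAR 2.5.2b, featureCounts, DESeq2 and the mouse build mm9 were used, and the labels' protocols name TRIzol and a stranded mRNA kit. The annotation, the strand setting and the treatment of reads that fit several genes are not given in the sources used here.

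The deposited Total_WT replicate 1 column held 200140709 counts, and the sum of the 9 nuclear columns, 181106189, was subtracted from it gene by gene, a step chosen after seeing the data. The remainder, 19034520 counts, lies within the range of the other libraries. Counts were tested with edgeR 4.0.16 (R 4.3.3, limma 3.58.1): its expression filter, TMM scaling, quasi-likelihood fits and Benjamini-Hochberg adjustment over all genes tested. Genotypes were compared in fits of the 9 libraries of a fraction (15112 nuclear and 15051 total genes), and fractions and interactions in a fit of all 18 (15410 genes). The procedure was also run on simulated data, in which a small set of genes was changed by known folds and all other genes kept 1 shared profile. Far more genes were called in the real libraries, so that run does not bear on the scaling or on the shares called here. Promoters were aligned with Biopython 1.88, and shared 50-base stretches were counted in the GRCm38 transcripts.

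Members of at least 5 CPM are named with all group means, those with a called change of at least 2-fold in Hom against Het or among the 10 widest ratios with each library's value, and in each comparison the 5 largest called rises and falls among members of at least 1 CPM. From each list of related genes up to 4 with the smallest p were taken. A few genes that these rules name are not reported here. Members, roles and lists were chosen with earlier results of these data known. Alternatives were no filter, a mean of at least 5 CPM, DESeq2 1.42.0, its size factors in edgeR, library totals alone, other sets of libraries in the fit, a replicate block, the deposited column and each library left out.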

Additional observations from a re-analysis of the deposited data

Results flagged for a closer look

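The genotype difference in nuclear RNA differed from that in total RNA, by the interaction test in edgeR, for most members. The 20 values given are the 5 largest in each direction of 2 comparisons, each the log2 difference in nuclear RNA minus that in total RNA.

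In Hom against Het the nuclear pair is high and the total pair low in Xist, and the fraction cannot be told apart from that difference. The positive values were Slc22a2 3.61 (SE 0.044, adjusted p = 3.29e-118), Slc22a7 2.77 (SE 0.054, adjusted p = 1.20e-91), Slc22a28 2.51 (SE 0.12, adjusted p = 1.97e-38), Slc22a12 2.41 (SE 0.027, adjusted p = 1.90e-121) and Slc22a6 2.21 (SE 0.030, adjusted p = 3.33e-112) in edgeR. The cation uptake carrier Slc22a2, the anion carriers Slc22a6 and Slc22a7 and the urate exchanger Slc22a12 were higher in nuclear and lower in total RNA of Hom, whereas Slc22a28 was lower in both. The negative values in edgeR were Abcc8 -2.44 (SE 0.40, adjusted p = 8.45e-09), Slc22a26 -1.79 (SE 0.18, adjusted p = 1.62e-17), Abcc3 -1.53 (SE 0.077, adjusted p = 3.15e-43), Slc22a27 -1.32 (SE 0.62, adjusted p = 0.0376) and Slco4a1 -1.28 (SE 0.073, adjusted p = 2.33e-36). The Slc22a27 value was not called by DESeq2 (-1.35), with Total_WT replicate 1 as deposited (-1.33), or without Nuclear_Het replicate 2 (-1.20), Nuclear_Hom replicate 3 (-1.25), Total_Het replicate 2 (-0.91) or Total_Hom replicate 1 (-1.01).

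In Hom against WT, where each fraction set high-Xist against low-Xist libraries in opposite directions, the positive values in edgeR were Slc22a29 5.54 (SE 0.13, adjusted p = 1.23e-89), Abcc3 4.63 (SE 0.073, adjusted p = 2.67e-109), Slc22a27 4.36 (SE 0.47, adjusted p = 1.95e-18), Slc22a7 3.26 (SE 0.053, adjusted p = 8.04e-103) and Slc22a3 2.89 (SE 0.35, adjusted p = 2.03e-12). The negative ones in edgeR were Slco1a1 -14.38 (SE 0.23, adjusted p = 5.70e-151), Slc22a30 -8.27 (SE 0.17, adjusted p = 4.83e-105), Slc22a26 -6.42 (SE 0.15, adjusted p = 1.67e-94), Slc22a28 -5.92 (SE 0.12, adjusted p = 6.98e-92) and Abcc9 -2.23 (SE 0.12, adjusted p = 3.67e-39). Genotype and the Xist difference cannot be told apart in these values.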

How the results depend on the processing

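Counts of called members stayed within 1.5 times those reported under every alternative run. Leaving out each library gave 29 to 30 in nuclear and 39 to 41 in total RNA for Hom against Het, and the other alternatives 28 to 32 and 36 to 43. Of 7460 values, 140 lost and 37 gained a call at an unchanged sign. Another 18 changed sign and were called as reported or under the alternative, and some of these lost their call as well. The remaining 7265 kept their side of the threshold, and they include any changes of sign of values called in neither setting. Library totals alone moved the median of all genes by up to 0.238 in size (Nuclear against total RNA, Het) and gave opposite signs for Slc22a19 0.046 and Slc22a4 0.12 (Hom against WT, nuclear), Abcc10 0.16 and Slc22a7 0.019 (Het against WT, nuclear), Slc22a17 -0.15 (Het against WT, total), Slc22a17 -0.024 and Slc22a8 -0.13 (nuclear against total, WT), Abcc10 0.16, Slc22a17 0.011, Slc22a19 0.13 and Slco1a6 0.086 (nuclear against total, Het), Slc22a12 0.0062 and Slc22a18 0.14 (interaction, Hom against WT) and Abcb10 -0.022 (interaction, Hom against Het). Under that scale the share of all called genes that were higher moved from 49.6% to 33.5% in nuclear and from 49.1% to 68.4% in total RNA of Hom against Het, while members split 19 higher to 11 lower and 19 to 22.

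The deposited Total_WT replicate 1 column gave Slc22a28 -0.023, Slc22a5 -0.0067 and Slc22a6 -0.0013 in Hom against WT and Slco2b1 0.040 in Het against WT, both in total RNA. It also ended the calls of Slco1a1, Slc22a29 and Slc22a30 in the interaction of Hom against Het (-0.62, -0.67 and 1.83). The cause of these changes was not tested.

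The replicate numbers did not pair the libraries: deviations of same-numbered libraries correlated at a median of 0.0030, from -0.0692 to 0.0664. With a replicate block 31 members were called in nuclear RNA of Hom against Het and 41 in total RNA of Hom against WT. Members under about 1 CPM rest on few counts, and differences among them were not detectable at this depth unless large.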
